A study of Homo sapiens with 21 samples.

Results

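HCC4006 is a lung adenocarcinoma cell line with an activating mutation of EGFR, the receptor tyrosine kinase that gefitinib inhibits. The measurements described here compare the resistant derivative HCC4006GR, labelled resistant to gefitinib, with the parental stock HCC4006P2, labelled sensitive and with no drug. The members were chosen by their cell line labels: 2 of the 21 RNA sequencing libraries of the series, 1 library per line, over all genes. To derive HCC4006GR, gefitinib was stepped up over months of culture. Both lines were grown in RPMI medium with fetal bovine serum. Whether gefitinib was in the medium when RNA was taken is not given in the sources used here. The lines set beside them were HCC4006P1, another parental stock of HCC4006 (labelled sensitive, 2 libraries), HCC4006ER (resistant to erlotinib, 2 libraries) and the pair HCC827P and HCC827GR (another EGFR-mutant lung line and its gefitinib-resistant derivative, 1 library each). Fewer cells of a type and less RNA per cell cannot be told apart in such bulk samples.

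Epithelial cells are held to each other by E-cadherin, desmosomes and tight junctions, and are kept epithelial by factors such as GRHL2 and ESRP1. In an epithelial-to-mesenchymal transition (EMT), factors of the SNAI, ZEB and TWIST families repress those genes, and vimentin, N-cadherin and fibrillar collagens appear. Cells may also stop at an intermediate state that holds genes of both programmes. EMT is known in lung adenocarcinoma as one route by which cells tolerate EGFR inhibitors.

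The libraries of HCC4006P2 and HCC4006GR held 13608332 and 15107338 reads on genes, so that 3 counts, the smallest number taken as detected, were 0.22 and 0.199 CPM, the count scaled to the library's total on genes. With 1 library per line there is no replicate of either, and no p-value is given. A gene was called higher or lower when its log2 fold change on log2(CPM + 1) was at least 1 in size and its 95% counting interval, combined from a Wilson interval in each library, excluded 0. Such intervals cover counting error only. Among 14821 genes with a mean of at least 1 CPM over both libraries, 1137 were called higher in HCC4006GR (7.67%) and 1108 lower (7.48%), with a median log2 fold change of -0.08. The counts of every gene list below are to be read beside these shares. The spread between libraries was read from lines with 2 libraries, whose labels do not say whether they came from separate cultures. The median size of the log2 difference was 0.11 between the libraries of HCC4006ER and 0.24 between those of HCC4006P1, against 0.35 between HCC4006GR and HCC4006P2. Replicate 1 of HCC4006P1 lacked counts from part of chromosome 7 onwards in alphabetical order of chromosome names (the rest of 7, then 8, 9, X and Y). It was used only outside that stretch.

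The other parental stock, read from HCC4006P1 replicate 2, differed from HCC4006P2 by more than HCC4006GR did, with a median size of 0.52. In HCC4006P1 replicate 2, 5.93% of tested genes were called higher and 17.5% lower than in HCC4006P2. Values in HCC4006P1, below, are those of its replicate 2 unless replicate 1 is named. Of 14111 genes tested against both parental stocks, 756 (5.36%) were called higher in HCC4006GR than in both and 343 (2.43%) lower than in both, while 200 were called in opposite directions. These comparisons share the HCC4006GR library. As a check of identity, CDKN2A and CDKN2B had 0 counts in the libraries of HCC4006P2 and HCC4006GR and in the other complete HCC4006 libraries, while each had more than 3 counts in 12 of the 15 libraries of other lines. In HCC4006P2, 10.96% of reads fell in no annotated feature, against 12.5% in HCC4006GR and 5.31% in HCC4006P1 replicate 2. Reads not uniquely aligned were 20.4%, 20.0% and 31.9% in the same order. Between the libraries of HCC4006P1, 71 of 11973 genes tested outside the missing stretch were called higher in replicate 2 and 215 lower. A difference between stocks can therefore not be told apart from one between libraries.

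Genes that mark mesenchymal cells rose in HCC4006GR, while no gene of the epithelial signature was called lower. The mesenchymal signature, split from the epithelial one by the labels of the study's own gene list, which differs from the split its text states, holds 37 genes, of which 36 were matched and 31 passed the filter on low values. Of these, 22 were called higher and 1 lower, against 7.67% and 7.48% of all genes tested, with a median log2 fold change of 1.45. The epithelial signature holds 13 genes, which all passed the filter: 1 was called higher, none was called lower, and the median was -0.31. The study classed HCC4006GR as having undergone full EMT, from cell shape, EPCAM protein at the cell surface and signature genes in these same samples. The counts are therefore not independent evidence of a direction. For lines of that class the study described epithelial markers as downregulated, from the average change of its marker set and naming no fold threshold per gene. The rule used here asks each gene for a fold of 2, and by it no epithelial signature gene was called lower. Of the 13, 7 had a log2 fold change below 0. Over all matched genes, the mean log2 fold change was 1.41 (counting interval 1.36 to 1.45) for the mesenchymal signature and -0.07 (-0.10 to -0.05) for the epithelial one. The sign of the epithelial mean turned with median-ratio scaling (0.046).

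Of the transcription factors that drive EMT, ZEB2, TWIST1 and ZEB1 had 8 counts or fewer in HCC4006P2. ZEB2, a zinc-finger repressor of E-cadherin, had 2 counts in HCC4006P2 and 236 in HCC4006GR, or 0.147 to 15.6 CPM (log2 fold change 3.86, counting interval 3.40 to 4.08), a ratio of 106 with a counting interval of 29.1 to 883. Its paralogue ZEB1 went from 0.588 to 13.8 CPM (3.22, 2.74 to 3.57). TWIST1, a basic helix-loop-helix factor of mesoderm, went from 3 to 98 counts (2.62, 2.12 to 2.93), a ratio of 29.4 with a counting interval of 9.78 to 145. All of these were called higher, as was SNAI1 (Snail), from 3.31 to 9.66 CPM (1.31). SNAI2 (Slug) was measured at 21.1 and 26.1 CPM and was not called, and PRRX1 was below the filter with 0 and 2 counts. Of the 8 EMT transcription factors tested, 4 were called higher and none lower. ZEB1, ZEB2 and TWIST1, below 1 CPM in HCC4006P2, passed the filter only through HCC4006GR and could not be called lower. In HCC4006P1 replicate 2 TWIST1 was at 8.62 CPM and SNAI1 at 7.08 CPM, so that HCC4006GR did not exceed that stock by the rule, whereas ZEB1 (6.1 CPM) and ZEB2 (0.872 CPM) were called higher against both stocks.

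Vimentin (VIM), the intermediate filament of mesenchymal cells, rose from 160.3 to 604 CPM (log2 fold change 1.91, 1.84 to 1.98). The other parental stock held 598 CPM of VIM, a difference of 0.02 from HCC4006GR. N-cadherin (CDH2) rose from 9.26 to 87.4 CPM (3.11, 2.87 to 3.34) and was at 55.5 CPM in HCC4006P1. Neither gene was called against HCC4006P1, so their rise is relative to HCC4006P2. The opposite held for SPARC, a collagen-binding matricellular protein, which rose from 414 to 1558 CPM (1.91) and was at 0.513 CPM in HCC4006P1. Of 30 signature genes tested against both stocks, 17 were called higher against both, among them the growth factors VEGFA (120.0 to 372 CPM) and VEGFC (26 to 92.5 CPM), the proteoglycan VCAN (113 to 428 CPM) and the gelatinase MMP2 (83.3 to 210.0 CPM). FN1 (fibronectin) rose from 77.1 to 169 CPM, and stood at 107 CPM in HCC4006P1. WNT5A, YAP1, COL8A2, SNAI2, NOTCH2, COL4A2, TGFB1 and MSN were tested and not called. The 1 signature gene called lower was COL5A2, from 17.6 to 1.06 CPM (-3.17, -3.53 to -2.74).

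Among epithelial genes, E-cadherin (CDH1) was measured at 482 CPM in HCC4006P2, 499 CPM in HCC4006GR and 485 CPM in HCC4006P1. The 3 libraries were level with each other, and the log2 fold change against HCC4006P2 was 0.05 (0.00 to 0.10). The adhesion molecule EPCAM was at 344 and 270.5 CPM (-0.35), and CTNNA1, which ties cadherins to actin, at 570.3 and 577 CPM (0.02). Desmoplakin (DSP) was the 1 gene called higher, from 109 to 249.8 CPM (1.18, 1.10 to 1.27), with 234 CPM in HCC4006P1. The largest difference in the other direction was that of GRHL2, a master regulator of the epithelial state, from 88.4 to 45.5 CPM (-0.94, -1.07 to -0.81), just short of the threshold and as far from HCC4006P1 (-0.97). KRT18 was at 370.4 and 285 CPM here and at 1489.9 CPM in HCC4006P1, the only epithelial signature gene called lower against that stock. KRT18 and KRT8 have many processed pseudogenes, so their counts are uncertain. CTNNB1 (beta-catenin) was not called against HCC4006P2 (0.26) but was called higher against HCC4006P1 (1.12).

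**Figure D1:**
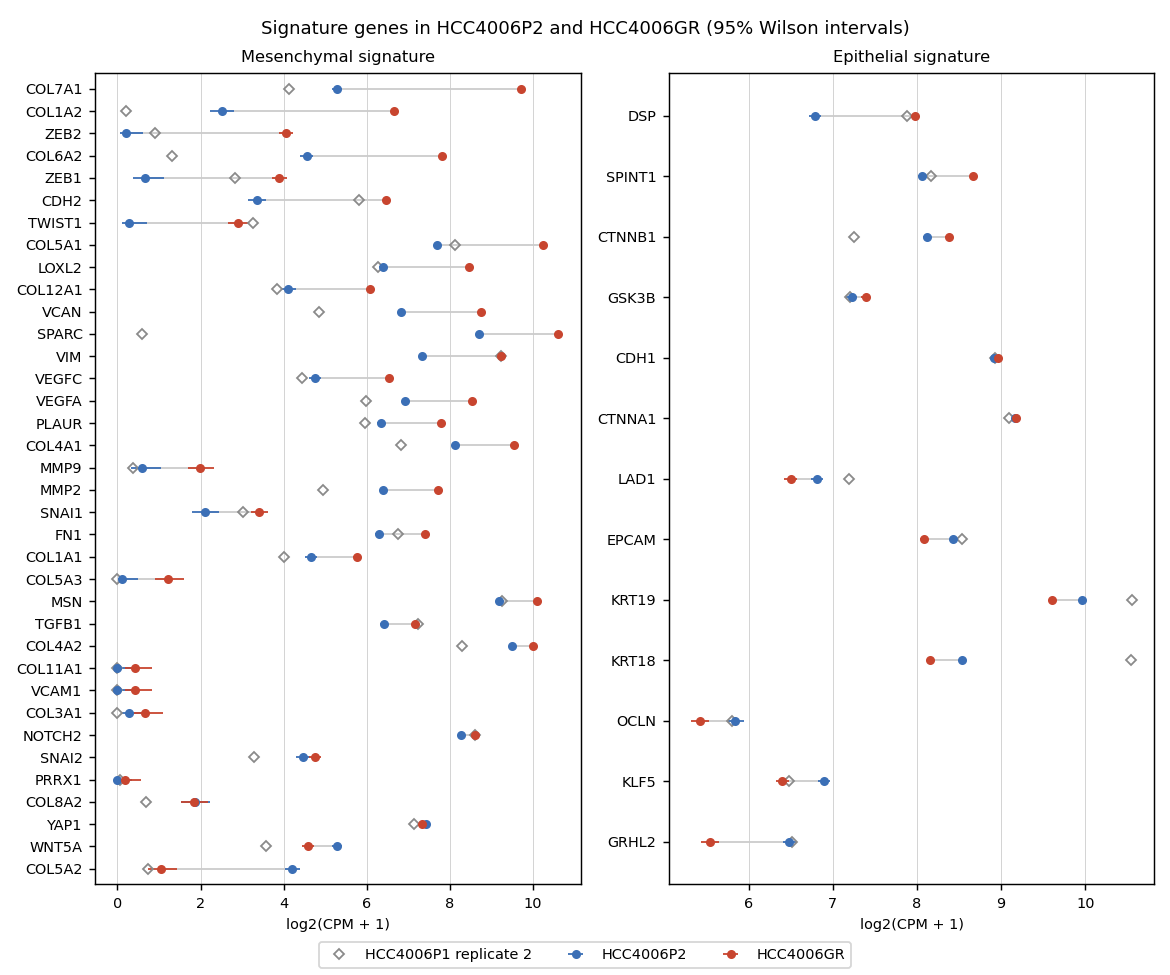
Level of each signature gene on log2(CPM + 1) in HCC4006P2 (blue), HCC4006GR (red) and HCC4006P1 replicate 2 (open diamonds), with 95% Wilson intervals for the blue and red points, genes sorted by their change. Red points lie right of blue ones for 32 of 36 mesenchymal genes, while CDH1 and CTNNA1 have all points together and VIM has the open diamond on the red point.

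Of 23 adherens and tight junction genes tested, 1 was called higher (NECTIN4, a nectin of epithelial contacts, 10.1 to 30.8 CPM) and 1 lower (CLDN3, a claudin, 11.5 to 4.43 CPM), with a median of 0.01. Each direction held 4.35% of them, against 7.67% and 7.48% of all genes tested. Of 12 desmosome genes tested, 3 were called higher and 1 lower, with a median of 0.24. The plaque protein PKP1 rose from 4.63 to 21.6 CPM (2.01), the cadherin DSC2 from 43.9 to 94.1 CPM (1.08), and the cornified-envelope protein EVPL fell from 79.9 to 38.3 CPM (-1.04). Of 10 keratins tested, KRT6A and KRT16 were called higher and KRT4 and KRT15 lower. Of 15 genes of the EPCAM and matriptase axis and of epithelial trafficking tested, MAL2, an apical sorting protein, was called lower (394 to 175 CPM, -1.17) and none higher. Among 15 epithelial transcription and splicing regulators, 2 were called higher and 3 lower. KLF4 rose from 14 to 51.8 CPM (1.81) but was at 43.5 CPM in HCC4006P1, while FOXA1, TFCP2L1 and OVOL2 were called lower, with log2 fold changes of -1.86, -1.27 and -1.14. FOXA1 and TFCP2L1 turned direction against HCC4006P1 (0.37 and 0.60). The splicing factor ESRP1 was at 186 and 113 CPM (-0.71) and was not called.

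ZEB1 and ZEB2 bind the E-box CACCTG. The RefSeq promoter table (GRCh38.p14, 250 bases before to 50 after the start) held 8 of the 13 epithelial signature genes, and 4 of them contained CACCTG or its reverse complement CAGGTG, against 20.6% of all 35116 promoters. The first count is of genes with a match in any of their promoters and the second of promoters, so they are not like for like. Stretches of 100 bases around a match are shown for these genes, none of which was called lower while ZEB1 and ZEB2 were called higher, with the E-box in capitals.
LAD1 (chr1:201399333-201399432, minus strand): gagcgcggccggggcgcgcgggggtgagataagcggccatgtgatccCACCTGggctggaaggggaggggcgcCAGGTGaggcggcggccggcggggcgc
OCLN (chr5:69492467-69492566, plus strand): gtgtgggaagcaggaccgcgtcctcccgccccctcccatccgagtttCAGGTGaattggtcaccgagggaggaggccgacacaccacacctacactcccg
DSP (chr6:7541446-7541545, plus strand): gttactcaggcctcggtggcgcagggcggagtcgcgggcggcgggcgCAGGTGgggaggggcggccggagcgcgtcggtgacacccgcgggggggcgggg
SPINT1 (chr15:40844404-40844503, plus strand): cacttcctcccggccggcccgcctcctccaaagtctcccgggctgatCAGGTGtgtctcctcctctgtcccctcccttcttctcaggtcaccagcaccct
LAD1 was measured at 111 CPM in HCC4006P2 and 89.3 CPM in HCC4006GR, OCLN at 56.2 and 41.9 CPM, and SPINT1 at 266 and 405 CPM. None of these was called. A match is a description of the letters and does not show binding.

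Matrix genes formed one of the largest groups that rose. Of 24 collagens tested, 13 were called higher and 3 lower, with a median of 1.10. The anchoring-fibril collagen COL7A1 rose from 38 to 844 CPM (log2 fold change 4.44, 4.31 to 4.56), the type I chain COL1A2 from 4.7 to 100.5 CPM (4.15), the microfibril chain COL6A2 from 22.6 to 223 CPM (3.25) and COL5A1 from 206 to 1203 CPM (2.54). Each of these was called higher against both parental stocks, and COL1A2 was at 0.154 CPM in HCC4006P1. COL4A5 rose against HCC4006P2 (2.65 to 33.9 CPM) but was called lower against HCC4006P1, where it was at 90.5 CPM. Of 13 enzymes that modify collagen, 6 were called higher and 1 lower. The cross-linking lysyl oxidase LOX rose from 34.5 to 256 CPM (2.86), its relative LOXL2 from 82.7 to 354 CPM (2.09) and the prolyl hydroxylase subunit P4HA2 from 103 to 608 CPM (2.55). All of these were among the 5 called higher against both stocks.

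Receptors and ligands of the basement membrane rose too, with 12 of 23 integrins and laminins called higher and none lower. LAMB3, a chain of the laminin that anchors epithelial cells, rose from 187 to 1054 CPM (2.49, 2.43 to 2.55). It was at 1006 CPM in HCC4006P1, near its level in HCC4006GR, and was not called against that stock. The fibronectin receptor ITGA5 rose from 37.1 to 219 CPM (2.53) and the collagen receptor ITGA11 from 2.28 to 21 CPM (2.75), each called against both stocks. Of 20 fibronectin and matricellular genes tested, 10 were called higher and 2 lower. HAS3, a hyaluronan synthase, fell from 319 to 84.5 CPM (-1.90) while HAS2 rose from 1.4 to 6.82 CPM (1.71), and CD44, the hyaluronan receptor, was at 9869.8 and 9031 CPM (-0.13). HAS3 was at 21.7 CPM in HCC4006P1, so that its direction turned against that stock.

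Proteases and their inhibitors held some of the largest changes, with 14 of 20 tested genes called higher, none lower, and a median of 1.62. MMP10 (stromelysin-2) had 0 counts in HCC4006P2 and 1039 in HCC4006GR (68.8 CPM), at least 312-fold higher with 3 counts per library as the floor. The collagenases MMP1 and MMP13 rose from 0.441 to 38.1 CPM (4.76) and from 3.16 to 54.8 CPM (3.75), and SERPINE2 from 11.1 to 194 CPM (4.01). MMP10 and MMP1 passed the filter only through HCC4006GR, so they could not be called lower. The inhibitors TIMP1 and TIMP2 were not called (-0.10 and 0.83). Among cytoskeletal genes of mesenchymal cells, 4 of 16 were called higher and 1 lower. FLNC (filamin C) rose from 5.22 to 107 CPM (4.12) and TPM1 (tropomyosin) from 288 to 1235 CPM (2.10), but FLNC was at 55.6 CPM in HCC4006P1 and was not called against it (0.93). Beside CDH2, the cadherins CDH4, CDH6, CDH11 and CDH13 were called higher, by 2.88, 2.47, 1.70 and 1.75, of which CDH4 was not called against HCC4006P1 (0.23).

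The group with the largest median was that of inflammatory cytokines and chemokines, which recruit and activate leukocytes. Of 20 tested, 18 were called higher and none lower, with a median log2 fold change of 4.41 against -0.08 over all genes, and all 18 were also called higher against HCC4006P1. One tested gene was at 0 counts in HCC4006P2, and with it at its bound the median was 4.61. Genes below 1 CPM in HCC4006P2, among them CXCL1, CXCL3, CXCL5, CXCL6 and IL1B, passed the filter only through HCC4006GR. Such genes could not be called lower, so the count and median are a description. CXCL5, CXCL6, CXCL1, CXCL2, CXCL3 and CXCL8 are neutrophil-attracting chemokines whose genes lie together on chromosome 4. Their promoters share a match to the kB element that NF-kB dimers bind, which is why they are shown. CXCL2 and CXCL3 were added to the named genes after values were seen. The letters GGAATTTCC or the reverse complement GGAAATTCC were found in 0.461% of all promoters and in 7 of the 17 genes of the cytokine list that the promoter table holds. Here too the share is of promoters and the count is of genes with a match in any promoter. Stretches of 100 bases (GRCh38.p14, RefSeq) are given with the match in capitals.
CXCL8 (chr4:73740433-73740532, plus strand): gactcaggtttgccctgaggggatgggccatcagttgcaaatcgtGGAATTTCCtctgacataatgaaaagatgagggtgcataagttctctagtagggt
CXCL6 (chr4:73836544-73836643, plus strand): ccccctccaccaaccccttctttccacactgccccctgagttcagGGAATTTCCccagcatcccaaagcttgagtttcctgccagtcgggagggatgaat
CXCL1 (chr4:73869270-73869369, plus strand): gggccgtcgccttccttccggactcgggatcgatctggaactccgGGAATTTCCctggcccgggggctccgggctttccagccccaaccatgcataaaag
CXCL5 (chr4:73998713-73998812, minus strand): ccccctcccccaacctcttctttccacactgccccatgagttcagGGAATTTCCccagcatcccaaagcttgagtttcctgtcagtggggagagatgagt
CXCL3 (chr4:74038713-74038812, minus strand): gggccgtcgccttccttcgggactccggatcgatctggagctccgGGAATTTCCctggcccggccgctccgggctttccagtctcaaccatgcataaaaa
CXCL2 (chr4:74099218-74099317, minus strand): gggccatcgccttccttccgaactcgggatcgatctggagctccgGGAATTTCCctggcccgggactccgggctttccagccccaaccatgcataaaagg
CXCL1, CXCL2 and CXCL3 are near-identical copies of each other, as are CXCL5 and CXCL6, in these stretches too, so the split of reads within each group is uncertain. For the same reason the matches within each group are not independent of each other. The matches lie in the same orientation and within 100 bases before the start in each of the promoters shown. The remaining gene of the 7 held the reverse complement, more than 100 bases before the start, and is not shown.

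CXCL5 had 4 counts in HCC4006P2 and 2044 in HCC4006GR, or 0.294 to 135 CPM (log2 fold change 6.72, 6.27 to 6.94), and was the gene with the largest increase among those that also differed from HCC4006P1. CXCL6 had 3 and 1731 counts (6.57, ratio 519.7 with a counting interval of 178 to 2523) and CXCL1 5 and 1720 (6.39). CXCL8 (interleukin 8) rose from 15.7 to 1144 CPM (6.10, 5.92 to 6.29), a ratio of 73.1. It differed by up to 1.71 on the log2 scale between replicate libraries of other HCC4006 lines, less than this change. CXCL2 rose from 1.32 to 61.1 CPM (4.74), and CXCL3 from 0 to 257 counts, at least 77.2-fold. Apart from CXCL8, these chemokines were at or near 0 in HCC4006P2, and all 6 were at 3.23 CPM or less in replicate 2 of HCC4006P1. In replicate 1 of HCC4006P1, CXCL8 was at 15.1 CPM, beside 15.7 CPM in HCC4006P2. That value is scaled to the incomplete total of replicate 1, which raises it. The myeloid growth factor CSF2 (GM-CSF) rose from 2.13 to 211 CPM (6.08), the pro-inflammatory cytokine IL1B from 0.294 to 63.3 CPM (5.63) and IL32 from 2.57 to 141 CPM (5.31). IL18 (0.42) and PTGES (0.60), a prostaglandin synthase, were the tested genes of the list that were not called. Against HCC4006P1, IL18 was called lower (-1.08) and PTGES higher (2.11).

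NF-kB is a family of dimers of REL proteins that inhibitory IkB proteins hold in the cytoplasm, and it induces its own inhibitors. A list of 19 NF-kB subunits, feedback inhibitors and acute-phase genes was drawn up after values were seen, so its counts are a description. Of 18 tested, 14 were higher by the rule, also against HCC4006P1, and none lower. Among the subunits, RELB was measured at 18.3 and 67 CPM (1.82) and NFKB2 at 78.8 and 198 CPM (1.31), while RELA (0.53), REL (0.61) and NFKB1 (0.97) were not called. Among the inhibitors, the deubiquitinase TNFAIP3 (A20) rose from 13.8 to 344 CPM (4.54, 4.34 to 4.73), TNIP1 from 163 to 807 CPM (2.30) and NFKBIA (IkB alpha) from 68.9 to 247 CPM (1.83). The targets BIRC3, TRAF1 and ICAM1 differed by 2.17, 3.17 and 2.83. The complement component C3 rose from 1.18 to 108 CPM (5.65), the siderophore-binding LCN2 from 20.9 to 359 CPM (4.04) and the acute-phase genes SAA1 and SAA2 by 4.06 and 4.48. SAA1 and SAA2 are close copies whose reads may be split.

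Interferon-stimulated genes and genes of antigen presentation by MHC class I rose as a group, with 23 of 30 called higher, none lower and a median of 1.496. Of these, 22 were also called against HCC4006P1. The antiviral genes IFIT3, IFIT1 and IFIT2 rose from 52.7 to 458 CPM (3.10, 2.99 to 3.20), from 36.3 to 231 CPM (2.64) and from 66.7 to 386 CPM (2.51). MX1, a dynamin-like GTPase that blocks viruses, rose from 77.7 to 395 CPM (2.33). MX1, IFI44L and IFIT2 also differed by more than 1 on the log2 scale between replicate libraries of other HCC4006 lines, less than their change in HCC4006GR. Between the parental stocks, however, MX1 differed by -3.12 and IFI44L by -2.55 (HCC4006P1 against HCC4006P2), more than HCC4006GR differed from HCC4006P2. HLA-C, HLA-E and TAPBP were not called, at 0.80, 0.70 and 0.97. HLA genes are polymorphic and alike, and their counts are uncertain.

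**Figure D2:**
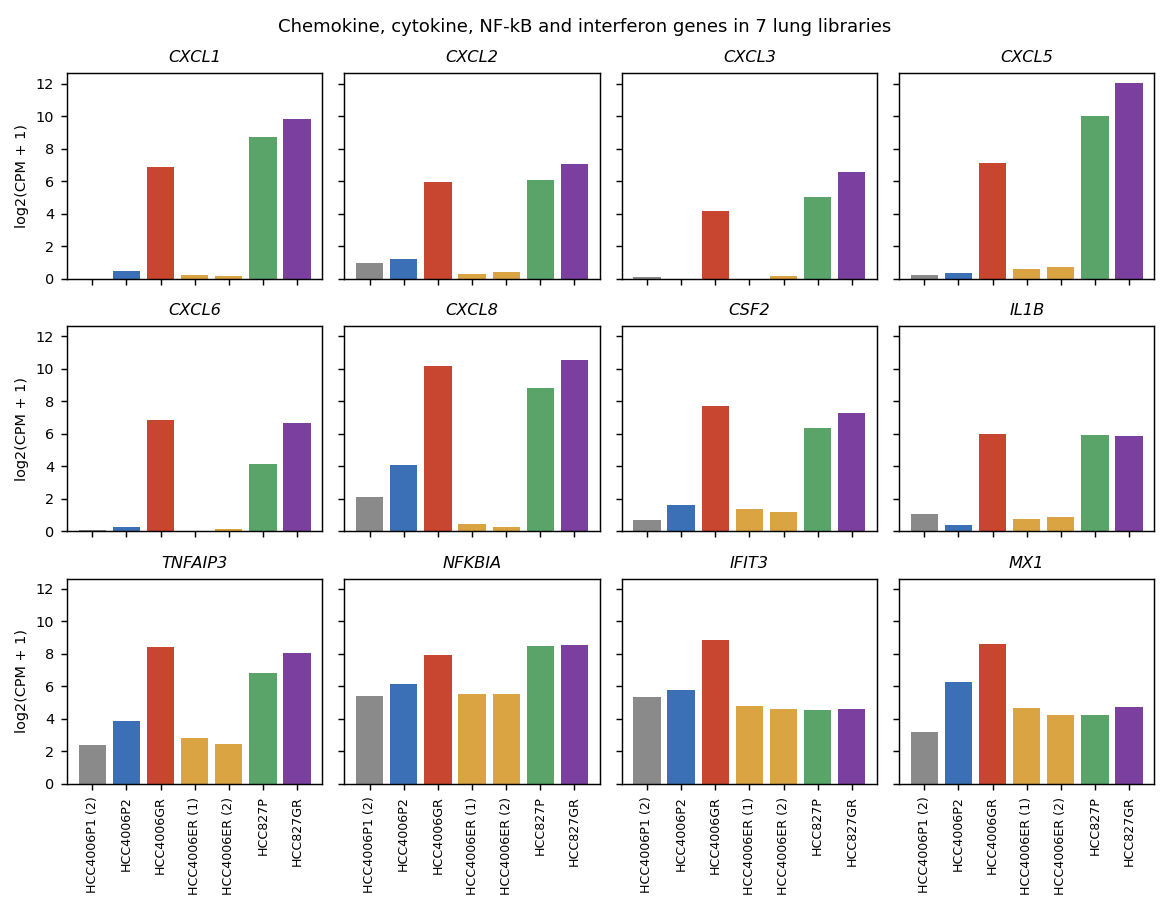
Levels on log2(CPM + 1) of 12 chemokine, cytokine, NF-kB and interferon genes in 7 lung libraries, 1 bar per library with the replicate in brackets. The HCC4006GR bar is above those of both parental stocks and of both HCC4006ER libraries in all 12 genes, while HCC827P and HCC827GR both hold the chemokines.

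**Figure D3:**
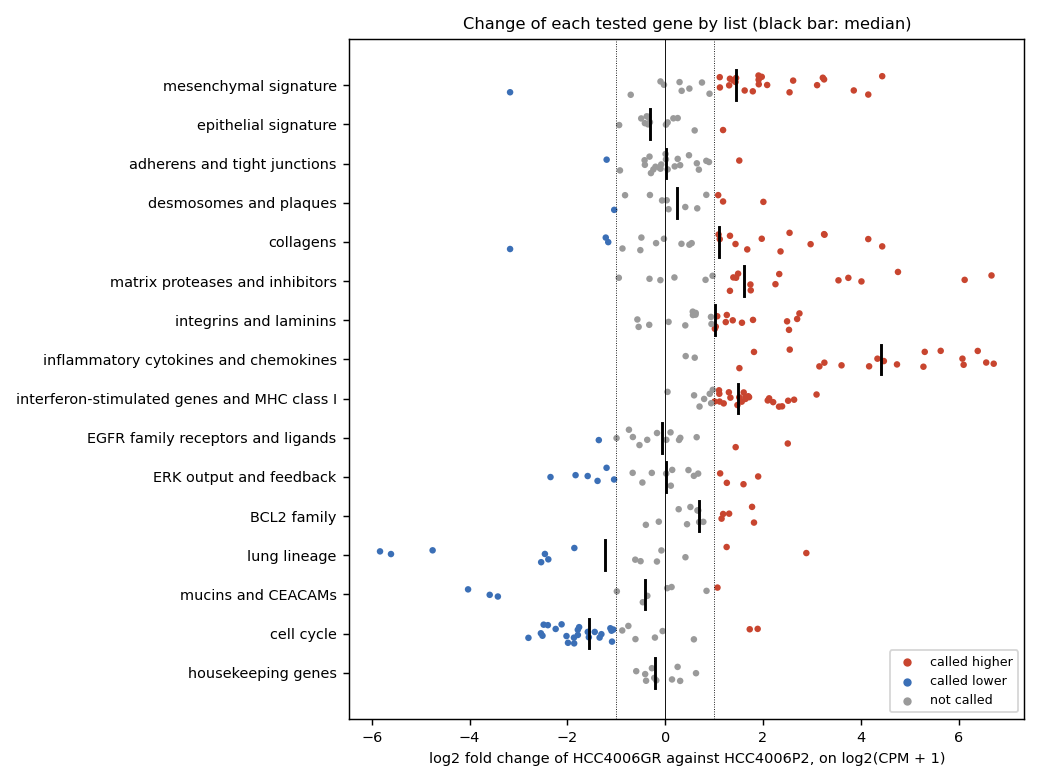
Log2 fold change of HCC4006GR against HCC4006P2 for each tested gene of 16 lists, 1 point per gene, with red and blue for called genes and a black bar at the median. The median is highest for cytokines and chemokines (4.41) and lowest for cell cycle genes (-1.56), with the epithelial signature at -0.31 and housekeeping genes at -0.20.

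EGFR, the target of the drug, was measured at 962 CPM in HCC4006P2, 1192 CPM in HCC4006GR and 1036 CPM in HCC4006P1 (0.31 against HCC4006P2) and was not called. Over the window of 25 tested genes centred on EGFR on chromosome 7, the median was -0.22, with none called higher and 2 lower. Of 14 EGFR family receptors and ligands tested, 2 were called higher and 1 lower. These are 14.3% and 7.14%, against 7.67% and 7.48% of all genes tested. The ligands NRG1 and HBEGF rose from 1.47 to 13 CPM (2.51) and from 5.36 to 16.3 CPM (1.44), and the feedback inhibitor LRIG1 fell from 16.8 to 5.96 CPM (-1.36). Against HCC4006P1 neither ligand was called, with 11.4 and 28 CPM in that stock. Of 28 other receptor tyrosine kinases and ligands tested, 8 were called higher and 7 lower. MET, a common bypass receptor, was at 828 and 662 CPM (-0.32) and was not called. FGF2, a ligand of FGF receptors, rose from 11.9 to 78.8 CPM (2.63) but was at 49.5 CPM in HCC4006P1, where it was not called (0.66), and the receptors ROS1 and PDGFRA rose from 13 to 154 counts (2.52) and from 1 to 78 (2.52, ratio 70.3 with a counting interval of 12.2 to 2810.3). AXL, a receptor linked with EGFR inhibitor resistance, rose from 48.8 to 132 CPM (1.41), but HCC4006P1 held 834 CPM, so that HCC4006GR was called lower against that stock.

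Genes downstream of EGFR did not move as one group. Of 19 genes of ERK output and feedback tested, 4 were called higher and 6 lower, with a median of 0.02. Relative to HCC4006P2, the inhibitor SPRY1 fell from 31.7 to 5.43 CPM (-2.35), the ETS factor ETV1 from 127 to 41.7 CPM (-1.59) and the immediate-early gene FOS from 10.6 to 2.25 CPM (-1.83). SPRY1 and ETV1 were not called against HCC4006P1 (-0.58 and -0.81). The difference of FOS was -4.02 against HCC4006P1, and it also differed by over 1 between replicate libraries of other lines. IER3 and the phosphatase DUSP5 rose from 251 to 940.3 CPM (1.90) and from 16.4 to 51.8 CPM. Of 14 BCL2 family genes tested, 5 were called higher and none lower. The pro-apoptotic BCL2L11 (BIM), which EGFR inhibition is known to induce, rose from 17.9 to 45.7 CPM (1.31, 1.11 to 1.51), BMF from 95.1 to 217 CPM (1.18) and BBC3 (PUMA) from 6.61 to 25.1 CPM (1.78), and the anti-apoptotic BCL2A1 from 1 to 42 counts (1.82, ratio 37.8 with a counting interval of 6.43 to 1529). Against both stocks 3 of the 5 were called higher, and BBC3 was not (0.86 against HCC4006P1). The anti-apoptotic MCL1 and BCL2L1 were not called (0.52 and 0.78), but BCL2L1 was called lower against HCC4006P1 (-1.23). Of 9 ABC transporters tested, the cholesterol exporter ABCA1 was called higher (16.1 to 209.8 CPM, 3.62) and ABCC6 lower (3.6 to 0.728 CPM).

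Within the TGF-beta pathway, 6 of 26 genes were called higher and 3 lower. INHBA, which encodes the activin A subunit, rose from 1.18 to 151 CPM (6.13, 5.71 to 6.47) and was at 0.821 CPM in HCC4006P1. LTBP2, a microfibril protein, rose from 21.3 to 247 CPM (3.48), but was at 205 CPM in HCC4006P1 and was not called against it (0.27). Of the genes of the pathway, 4 were called higher against both stocks. The ligands INHBB and BMP7 were lower than in HCC4006P2, from 116 to 25.5 CPM (-2.15) and from 21.1 to 0.596 CPM (-3.79). Of 18 Wnt genes tested, 6 were called higher and 3 lower: the ligands WNT7A and WNT5B rose by 3.73 and 3.57, the receptor LGR5 from 13 to 263 counts (3.23), and RNF43, a ubiquitin ligase that removes Wnt receptors, was called lower (-2.54). Of 21 axon guidance and L1 family genes tested, 8 were called higher and 1 lower, led by NFASC (3.07) and L1CAM (3.06), a pair of adhesion molecules of neurons. Against both stocks, 4 Wnt genes and 5 of the axon guidance list were called higher, and L1CAM was not (0.94 against HCC4006P1). Among YAP and TEAD targets 4 of 19 were called higher and none lower, among p53 targets 4 of 17 and none, and among NRF2 targets 2 of 14 and none. The shares called higher were 21.1%, 23.5% and 14.3%, against 7.67% of all genes tested. GDF15 rose from 18.8 to 106 CPM (2.43) and HMOX1 from 3.97 to 24.2 CPM (2.34), of which HMOX1 was not called against HCC4006P1 (0.20). No YAP or NRF2 target and 1 p53 target was called higher against both stocks, and the median of the YAP targets was 0.41 against HCC4006P2 and -0.15 against HCC4006P1. In HCC4006P1 the YAP target CCN2 was at 83.1 CPM, against 60 in HCC4006GR. Of 6 DNA methyltransferases and TET enzymes tested, none was called. Of 19 genes of cholesterol and fatty acid synthesis, 1 was called lower and none higher.

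Cell cycle genes were the largest group that fell. Of 31 tested, 23 were called lower and 2 higher, with a median of -1.56, and 22 were called lower against both parental stocks. The proliferation marker MKI67 fell from 575 to 100.2 CPM (-2.51, -2.59 to -2.43), topoisomerase TOP2A from 360.0 to 61 CPM (-2.54), the mitotic kinases PLK1 and CDK1 from 126 to 17.3 CPM (-2.80) and from 154 to 26.7 CPM (-2.49), and cyclin E2 (CCNE2) from 21.4 to 3.24 CPM (-2.40). Levels in HCC4006P1 were 802 CPM for MKI67 and 173 CPM for PLK1, so the parental stocks were on one side and HCC4006GR on the other. The 2 genes called higher were CDKN1A (p21), from 68.3 to 229 CPM (1.73, not called against HCC4006P1, 0.47), and CDK6, from 44.8 to 169 CPM (1.89), of which CDK6 was singled out after values were seen. CCND1, MCM2 and CDK4 were not called (0.59, -0.75 and -0.21). How dense or how fast-growing the cultures were is not given in the sources used here, and its part in these values was not tested.

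Genes of the lung lineage were lower in HCC4006GR than in HCC4006P2, but not than in HCC4006P1. Of 14 tested, 7 were called lower and 2 higher, with a median of -1.24. NKX2-1 (TTF-1), the factor that specifies lung epithelium, fell from 113 to 18.6 CPM (-2.54, -2.71 to -2.36) and its target NAPSA (napsin A), an aspartic protease of alveolar type II cells, from 143 to 1.52 CPM (-5.83). The secretoglobin SCGB3A1 went from 694 counts to 1 (-5.61) and HOPX from 476 to 5 (-4.76). These genes were at 0 or near 0 in HCC4006P1: NKX2-1 was at 0 CPM and NAPSA at 0.0513 CPM. The loss was therefore relative to HCC4006P2, and NKX2-1 in HCC4006GR was called higher against HCC4006P1. LAMP3, a lysosomal protein of type II cells and of dendritic cells that interferon also induces, rose from 5.36 to 46.1 CPM (2.89). Of 10 mucins and CEACAMs tested, 3 were called lower and 1 higher. The secreted mucin MUC5B fell from 298 to 17.3 CPM (-4.03), CEACAM6 from 7405 to 614 CPM (-3.59, -3.62 to -3.56) and CEACAM5 from 88.5 to 7.35 CPM (-3.42). All of these were called higher than in HCC4006P1, where CEACAM6 was at 58.6 CPM. CEACAM1, an inhibitory adhesion molecule, rose from 34.2 to 72.8 CPM (1.07).

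**Figure D4:**
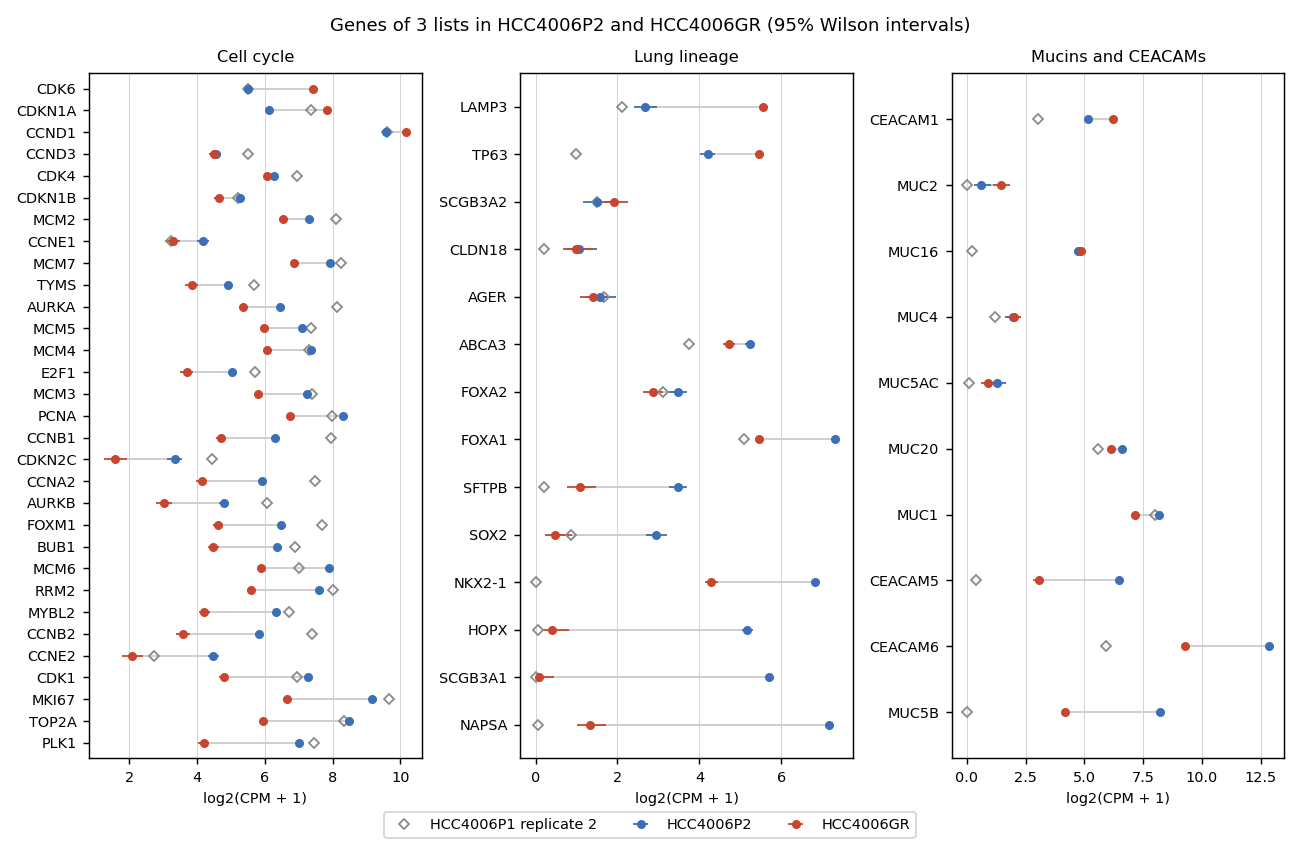
Levels on log2(CPM + 1) of the tested cell cycle, lung lineage and mucin and CEACAM genes in HCC4006P2 (blue), HCC4006GR (red) and HCC4006P1 replicate 2 (open diamonds), with 95% Wilson intervals for the blue and red points. In the cell cycle panel most red points lie left of both parental marks, whereas for NKX2-1, MUC5B and CEACAM6 the red point lies between them.

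Over the whole genome, the 12 genes with the largest increase that also exceeded HCC4006P1 and the replicate difference included CXCL5, CXCL6, CXCL1, INHBA, MMP10, CXCL8, CSF2, AMTN, C3, IL1B and IL32. AMTN (amelotin), a mineralizing matrix protein of teeth, had 0 counts in HCC4006P2 and 872 in HCC4006GR, at least 262-fold higher. The 12 with the largest decrease by the same rule were ALDH3A1, SLC15A2, PPFIBP2, METTL7A, RAP1GAP, E2F2, KIF20A, DLGAP5, CDKN3, KAZALD1, PLK1 and FA2H. ALDH3A1, an aldehyde dehydrogenase, fell from 114 to 6.22 CPM (-3.99, -4.25 to -3.73), the peptide transporter SLC15A2 from 20.2 to 1.06 CPM (-3.36), and RAP1GAP, which switches off the GTPase RAP1, from 82.6 to 9.4 CPM (-3.01). E2F2, KIF20A, DLGAP5 and CDKN3, which act in the cell cycle, had log2 fold changes of -2.99, -2.93, -2.90 and -2.89. The smallest of these increases was 5.31 and the largest of these decreases -3.99. Larger decreases against HCC4006P2, such as those of NAPSA (-5.83) and SCGB3A1 (-5.61), were outside the rule, since those genes were not lower than in HCC4006P1. The reach of the 2 directions can therefore not be compared from these genes.

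Neighbouring genes were read in windows of 25 tested genes in genome order, of which there were 13468 with a median of -0.07. Coordinates are on GRCh37. The window with the highest median, 0.84, lay on chromosome 5 from 148931510 to 151152093, with 11 genes called higher and none lower. Its leading genes were the receptor CSF1R (3.23 to 43.6 CPM, 3.40), ANXA6 (2.61), TNIP1 and SPARC. The next 2 lay on chromosome 15 from 70946893 to 74726299 (0.71, led by SEMA7A, 3.85, which differed by up to 1.49 between replicate libraries) and on chromosome 5 from 169010640 to 174871185 (0.63). The lowest lay on chromosome 14 from 36295544 to 50065882 (-0.95), where none of the 25 genes was above 0 and 11 were called lower. It was led by SFTA3 (-2.85), NKX2-1, PAX9 (-2.27) and FOXA1. Against HCC4006P2, HCC4006P1 was lower in that window too (-1.05). The others lay on chromosome 19 from 18529674 to 19314223 (-0.80) and on chromosome 14 from 52456232 to 55836771 (-0.78). There too HCC4006P1 was lower than HCC4006P2 (medians of -1.67 and -1.06). Against HCC4006P1, HCC4006GR had medians above 0 in the lowest windows, of 0.37, 0.79 and 0.41 in the order given.

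Other EGFR inhibitor-resistant lung lines were set beside HCC4006GR with parental libraries of their own. In HCC4006ER against HCC4006P1 replicate 2, 13.5% of tested genes were called higher in both libraries and 8.93% lower, and in HCC827GR against HCC827P 10.5% were called higher and 7.79% lower. Of the 962 genes called higher in HCC4006GR and tested in both pairs, 36.9% were also called higher in HCC4006ER (21.2% of its own list, background 12.4%) and 14.3% were called lower there (background 8.92%). Of 873 such genes tested in HCC827GR, 32.0% were called higher there (22.8% of its list, background 9.39%) and 96 were called lower (background 7.85%). Of the genes called lower in HCC4006GR, 26.3% were also lower in HCC4006ER (19.4% of its list, background 8.92%) and 38.1% in HCC827GR (30.4% of its list, background 7.85%), while 14.2% were called higher in HCC4006ER (background 12.4%) and 9.31% in HCC827GR (background 9.39%). These shares were not tested.

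The epithelial signature stood apart in level. Its median was -0.31 in HCC4006GR, -3.07 and -3.00 in the libraries of HCC4006ER and -1.19 in HCC827GR, with none, 10 and 7 of 13 genes called lower. CDH1 was at 8.6 and 10.4 CPM in HCC4006ER and went from 748 to 53.3 CPM in HCC827. The mesenchymal signature had 22 of 31 tested genes called higher in HCC4006GR, 22 of 30 in HCC4006ER and 13 of 26 in HCC827GR. Its collagens differed in size: COL1A2 was at 1422 and 1243 CPM in HCC4006ER, 100.5 in HCC4006GR and 0.0643 in HCC827GR. The cytokine and chemokine list had 18 of 20 genes called higher in HCC4006GR, 3 of 10 in HCC4006ER and 13 of 19 in HCC827GR. In HCC4006ER 4 of the 10 were called lower, and in HCC827GR none. CXCL8 was at 0.354 and 0.205 CPM in HCC4006ER and went from 452 to 1455 CPM in HCC827, and CXCL5 from 1033 to 4185 CPM there. Cell cycle genes had 23, 7 and 13 of 31 called lower in HCC4006GR, HCC4006ER and HCC827GR. Interferon-stimulated and MHC class I genes had 23 of 30 called higher and none lower in HCC4006GR. In each of the other lines 4 of 30 were called higher and 6 lower. Counts in the other lines cover only genes that also passed the filter for HCC4006GR and HCC4006P2. None of these differences between lines was tested.

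Markers of other cell types were counted in both libraries. Of 10 fibroblast markers 5 passed the filter and 3 of these (PDGFRA, THY1 and COL1A1) were called higher, with a median of 1.12 and a summed level of 36.0 CPM in HCC4006P2 and 78.5 CPM in HCC4006GR, while the defining markers DCN and LUM had at most 3 counts in both. PDGFRA and THY1 were at 5.16 and 3.44 CPM in HCC4006GR. The defining haematopoietic marker PTPRC had 3 and 2 counts, hepatocyte markers ALB and AFP at most 1, and the endothelial marker VWF 9 and 6. Of 6 haematopoietic markers tested 3 were called lower and 1 higher, and the endothelial KDR was called lower. The 8 haematopoietic markers summed to 92.3 and 106 CPM, the endothelial list to 26.0 and 8.67 CPM, and the hepatocyte list to 320 and 448 CPM, nearly all of it SERPINA1. The part of other cells in the results was not tested. No housekeeping gene of 10 was called, and their median was -0.20.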

How the data were processed

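RNA was sequenced from cell lines, 1 library each for HCC4006P2 and HCC4006GR. The authors aligned the reads to hg19 with TopHat and Bowtie and counted reads per gene with HTSeq, and the deposited values are raw counts per Ensembl gene. SAMtools is also named in the submitters' processing notes, and the versions are not given in the sources used here. The reads that HTSeq put in no gene (10.96% and 12.5% in no feature, 2.66% and 2.72% ambiguous, 20.4% and 20.0% not uniquely aligned in HCC4006P2 and HCC4006GR) were left out of totals. Symbols and GRCh37 positions came from the reference annotation, which matched 45100 of 53515 genes.

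Counts were scaled to CPM of the total on genes, and log2(CPM + 1) was compared (Python 3.11.15, numpy 2.4.6, pandas 2.3.3, scipy 1.17.1). Genes with a mean of at least 1 CPM were tested against a fold of 2 and a 95% counting interval, without a model across replicates. A gene below 1 CPM in one library passed only through the other, and could be called in that direction alone. The rule was tested on simulated data. CPM compares a gene between libraries and not levels between genes, since it is not per length. Alternatives were another pseudocount, TMM scaling (edgeR 4.0.16, R 4.3.3), median-ratio scaling, other parental libraries, filters and folds, and protein-coding genes alone. The count against both parental stocks was added after seeing the data.

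The genes named were all signature genes, in each other list up to 5 called members of largest change and up to 3 uncalled members of highest mean CPM, 12 genes in each direction over the genome, and the leading genes of the 3 highest and 3 lowest windows. Exceptions, chosen after values were seen, were CXCL2, CXCL3, CDK6, the defining markers of other cell types, CDKN2A and CDKN2B, the genes of the NF-kB list, and the genes that went in opposite directions in other lines. All members and lists were chosen with earlier results of these data known. Promoter sequences were RefSeq's (GRCh38.p14) and their positions are not comparable with GRCh37. PRSS2, CD24, ITGB3, MMP28, CCL5, SRXN1, ACACA, UHRF1 and PECAM1 were not matched by symbol and were not analysed here. Counts over lists include a few genes whose own values are not reported here.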

Additional observations from a re-analysis of the deposited data

Results flagged for a closer look

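Outside the NF-kB list, 15 of the genes reported here were called in one direction in HCC4006GR and in the other in both libraries of HCC4006ER and in HCC827GR, each against its own parental line. They were picked by this outcome from the chosen lists, so their number is a description. Of all genes called higher in HCC4006GR and tested in each pair, 14.3% were called lower in HCC4006ER (background 8.92%). In HCC827GR 96 of 873 were (background 7.85%). How many of all tested genes went the other way in both lines at once is not given here. Whether 15 is unusual can therefore not be told. These differences were not tested. COL17A1, a hemidesmosome collagen, had a log2 fold change of 1.33 in HCC4006GR, -3.45 and -3.58 in HCC4006ER and -3.22 in HCC827GR. ITGB6, the integrin chain that activates latent TGF-beta, had 1.06, against -4.34, -4.39 and -4.00 in the same order. ITGA2 and ITGA6 had 1.26 and 1.02 in HCC4006GR, and the junction genes NECTIN4 and DSC2 1.52 and 1.08. CEACAM1 had 1.07, the urokinase PLAU 1.74 and the serpin SERPINB5 1.75. In the TGF-beta pathway, LTBP2 had 3.48 and PMEPA1 1.24. The ectonucleotidase NT5E had 1.15, the interferon-induced IFI44 1.64 and the thioredoxin reductase TXNRD1 1.07. LRIG1 was the gene called lower in HCC4006GR and higher in the others, with -1.36. Against HCC4006P1 replicate 2, HCC4006GR differed by -0.98 for SERPINB5, -1.45 for TXNRD1 and 1.98 for LRIG1, and the direction turned. ITGA6 (0.35), LTBP2 (0.27), NT5E (0.04), NECTIN4 (0.59) and DSC2 (0.90) were not called against that stock. Within the NF-kB list LCN2 showed the pattern too, with 4.04 in HCC4006GR, -4.30 and -4.36 in HCC4006ER and -1.22 in HCC827GR.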

How the results depend on the processing

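No paired analysis was possible because HCC4006P2 and HCC4006GR have 1 library each. For the same reason no library could be left out. Against HCC4006P1 replicate 2, 2698 genes were called higher, the mesenchymal mean was 1.93, the epithelial mean -0.30 and 1 epithelial gene (KRT18) was lower. Against the mean of both stocks the epithelial mean was -0.23 and 1 gene was lower. Counting genes called against both stocks, an alternative chosen after seeing the data, left 756 higher and 343 lower. A mean of at least 10 CPM left 667 higher and 701 lower, by construction with fewer genes tested, and a fold of 4 left 360 and 202, with 9 mesenchymal genes higher. The mesenchymal mean was 1.78 with a pseudocount of 0.1 CPM, 1.46 with TMM, 1.51 with median-ratio scaling and 1.36 as a median. The epithelial mean was -0.0135 with TMM, 0.046 with median-ratio scaling and -0.31 as a median, so its sign rested on the scaling. Median-ratio scaling moved the median of all genes from -0.08 to 0.03, and the share of calls that were higher was 50.6%, 58.8% with that scaling, 70.0% against HCC4006P1 and 56.5% against the mean of both stocks. For 240 genes examined singly, it was counted whether called genes stayed called in the same direction and the others stayed uncalled. This held for 237 with TMM, 233 with median-ratio scaling, 240 with the other pseudocount, 156 against HCC4006P1 and 200 against the mean of both stocks. A gene that stayed uncalled was counted here even if its sign changed.

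Against HCC4006P1 the direction turned for COL5A2 (0.31), TWIST1 (-0.36), KRT4 (0.11), KRT16 (-0.80), FOXA1 (0.37), TFCP2L1 (0.60), COL4A5 (-1.39), HAS3 (1.91), LMO7 (0.33), BMP7 (0.34), INHBB (0.87), HBEGF (-0.75), LRIG1 (1.98), AXL (-2.65), DUSP5 (-0.50), NAPSA (1.26), SCGB3A1 (0.0925), HOPX (0.34), NKX2-1 (4.29), MUC5B (4.19), CEACAM6 (3.37), CEACAM5 (2.67), ALDH1L1 (0.32), AKR1C3 (-2.17), RNF43 (0.90), PLXND1 (1.00), CCN2 (-0.46), TXNRD1 (-1.45), SERPINB5 (-0.98) and SFTA3 (2.11). Against the mean of both stocks it turned for KRT16 (-0.14), COL4A5 (-0.45), HBEGF (-0.033), AXL (-1.74), AKR1C3 (-1.26), SERPINB5 (-0.18) and TXNRD1 (-0.68). These turns are of genes called against HCC4006P2, and uncalled genes whose sign changed are not listed. The cause was not tested. At this depth 3 counts are 0.22 and 0.199 CPM, and genes below them cannot be compared.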

Other observations

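Enzymes that clear aldehydes and ketones changed in both directions relative to HCC4006P2. Of 14 aldo-keto reductases and aldehyde dehydrogenases tested, 2 were called higher and 4 lower (14.3% and 28.6%, against 7.67% and 7.48% of all genes tested). Against both parental stocks none was called higher and 2 were called lower, while 2 were called in opposite directions. ALDH3A2 went from 435 to 122 CPM (-1.83) and ALDH1L1 from 18.9 to 3.24 CPM (-2.23), both called lower, but ALDH1L1 was not lower than in HCC4006P1. AKR1B1 rose from 47.8 to 121 CPM (1.32) and AKR1C3 from 0.588 to 4.5 CPM (1.79), but AKR1C3 was at 23.7 CPM in HCC4006P1. AKR1C genes are close copies, and their counts are uncertain. Of 10 S100 proteins tested, 3 were called higher and 1 lower, led by S100A9, a calprotectin subunit, from 0.441 to 7.22 CPM (2.51).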
